A study of Mus musculus with 6 samples.

Results

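A set of 9 genes that let white blood cells attach to and cross vessel walls were read in hearts of aged female mice after sham or TAC surgery. They are Vcam1, Icam1, Icam2, Sele, Selp, Selplg, Itga4, Itgb2 and Pecam1, chosen by symbol, and all 9 were found among the 22298 genes of the deposited expression table. Every animal was a wild-type female aged 18 months. The 3 sham libraries came from hearts after sham surgery and the 3 TAC libraries from hearts after TAC surgery, the usual abbreviation for transverse aortic constriction, which loads the left ventricle with pressure. No source used here gives the strain, the part of the heart taken or the interval after surgery. The labels number the hearts within each group, 1 per library.

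Leukocytes leave the blood in steps. Selectins (Sele, E-selectin, and Selp, P-selectin, on activated endothelium, the latter also in platelets) catch a glycoprotein ligand on the leukocyte, PSGL-1, encoded by Selplg, and the cell rolls. Leukocyte integrins then bind immunoglobulin-type ligands and the cell stops: the alpha 4 chain (Itga4) pairs with beta 1 or beta 7 to bind VCAM-1 (Vcam1), and the beta 2 chain (Itgb2, CD18) pairs with several alpha chains to bind ICAM-1 and ICAM-2 (Icam1, Icam2). PECAM-1 (Pecam1, CD31) sits in the junctions between endothelial cells and helps leukocytes pass. Inflammatory cytokines induce Vcam1, Icam1, Sele and mouse Selp in endothelium through NF-kappaB, whereas Icam2 and Pecam1 are made constitutively.

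The 250 bases before the RefSeq start site are shown for Sele and Selp, whose RNA kept a near-constant ratio across the libraries, and for Icam1, an inducible member of another family. They are from RefSeq, build GRCm38.p6, all on the plus strand, at chr1:164047984-164048233 for Sele, chr1:164115014-164115263 for Selp and chr9:21015690-21015939 for Icam1. Capitals mark matches to GGNNNTTCC, a core shared by many NF-kappaB sites, on either strand, and to TATAAA.
Sele: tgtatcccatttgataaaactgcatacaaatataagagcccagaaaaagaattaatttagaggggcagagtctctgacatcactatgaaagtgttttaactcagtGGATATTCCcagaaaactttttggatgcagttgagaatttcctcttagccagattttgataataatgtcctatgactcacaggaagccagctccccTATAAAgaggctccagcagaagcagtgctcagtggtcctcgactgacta
Selp: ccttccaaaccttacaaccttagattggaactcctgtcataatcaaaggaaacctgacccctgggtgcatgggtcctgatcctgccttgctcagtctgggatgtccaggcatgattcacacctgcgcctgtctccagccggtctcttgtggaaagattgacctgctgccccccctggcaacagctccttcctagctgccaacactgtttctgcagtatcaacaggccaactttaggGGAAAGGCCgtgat
Icam1: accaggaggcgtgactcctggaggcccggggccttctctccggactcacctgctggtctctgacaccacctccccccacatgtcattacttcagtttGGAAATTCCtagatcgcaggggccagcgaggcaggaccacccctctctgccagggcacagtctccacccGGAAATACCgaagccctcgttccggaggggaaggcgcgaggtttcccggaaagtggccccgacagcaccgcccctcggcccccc
Sele held 1 GGNNNTTCC match, 145 to 137 bases before the start, and a TATAAA 49 to 44 bases before it. Selp held 1 match, on the minus strand, 14 to 6 bases before the start, and no TATAAA. Icam1 held matches 153 to 145 bases before the start, where the letters match on both strands and so overlap, and 84 to 76 bases before it on the minus strand. In the same window, 15.7% of 32851 promoters held GGNNNTTCC, 12.4% held TATAAA and 7.25% held the stricter NF-kappaB consensus, which none of these 3 held. The promoter of Itga4, at chr2:79255176-79255425, was also read and held none of the motifs, and the promoters of the other members were not analysed here. The motifs were chosen after the sequences were seen, and a match describes letters only.

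Total estimated counts ranged from 19747265 to 27549838 per library. The 6 cardiomyocyte markers summed to 14975 to 18148 FPKM (fragments scaled to gene length and library total), as the heart label implies. TAC replicate 1 was closer to the sham libraries than the other TAC libraries were: its log2 CPM (counts scaled to library size) correlated at 0.971 to 0.975 with them, against 0.933 to 0.941 for TAC replicates 2 and 3. Within TAC the correlations were alike, at 0.961 and 0.957 for TAC replicate 1 with replicates 2 and 3 and 0.960 between those. The 8 markers of all leukocytes summed to 84.8 to 103 FPKM in sham and 131 to 275 FPKM in TAC, with Ptprc and Cd53 past the test. The 10 neutrophil markers summed to 2.64 to 11 FPKM in sham and 32.8 to 206 FPKM in TAC. Among them Ly6g was at 0 in every sham library and at 0.12 to 0.32 FPKM in TAC, too low to test. The 11 monocyte and macrophage markers went from 84.0 to 96.6 FPKM in sham to 114 to 260 FPKM in TAC. The sum of the 8 platelet markers, most of it Pf4, went from 24.7 to 35.8 FPKM to 41.1 to 83.6 FPKM. The 16 endothelial markers summed to 647 to 669 FPKM in sham and 565 to 677 FPKM in TAC, with 1 of 16, Tie1, lower. In such bulk tissue, more cells of a type and more RNA per cell cannot be told apart, and the part of cell numbers in the results below was not tested. Nor do these data show which cells made the RNA of a gene, so endothelial and leukocyte below name known sites of expression.

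The members known to be inducible in endothelium and the leukocyte members were higher in TAC by sample values. Icam2 and Pecam1, known as constitutive in endothelium, were not. Vcam1 was the 1 member of 9 that passed the test and rose (edgeR quasi-likelihood test, Benjamini-Hochberg adjusted p under 0.05 over 13708 genes). Over all tested genes, 1.12% passed as higher and 0.54% as lower, and 0 of the 9 members passed as lower. Icam1, Sele, Selp, Selplg, Itga4 and Itgb2 had adjusted p-values between 0.0523 and 0.0911, a range in which many genes lay: 8.25% of all tested genes were higher at an adjusted p under 0.10. In CPM every TAC library lay above every sham library for 7 of the 9 members, as for 18.4% of all tested genes. The result turned on single libraries and on the test. Without sham replicate 1, 2 or 3, 0 of the 9 members passed, and 16, 16 and 12 of all tested genes were called. Without TAC replicate 1, 7 of the 9 members passed as higher, beside 13.2% of all tested genes. With DESeq2's Wald test 7 did, beside 7.83%. Those 7 were Vcam1 and the 6 members named above. The median log2 fold change of the 9 members was 1.33, beside 0.03 for all tested genes.

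**Figure D1:**
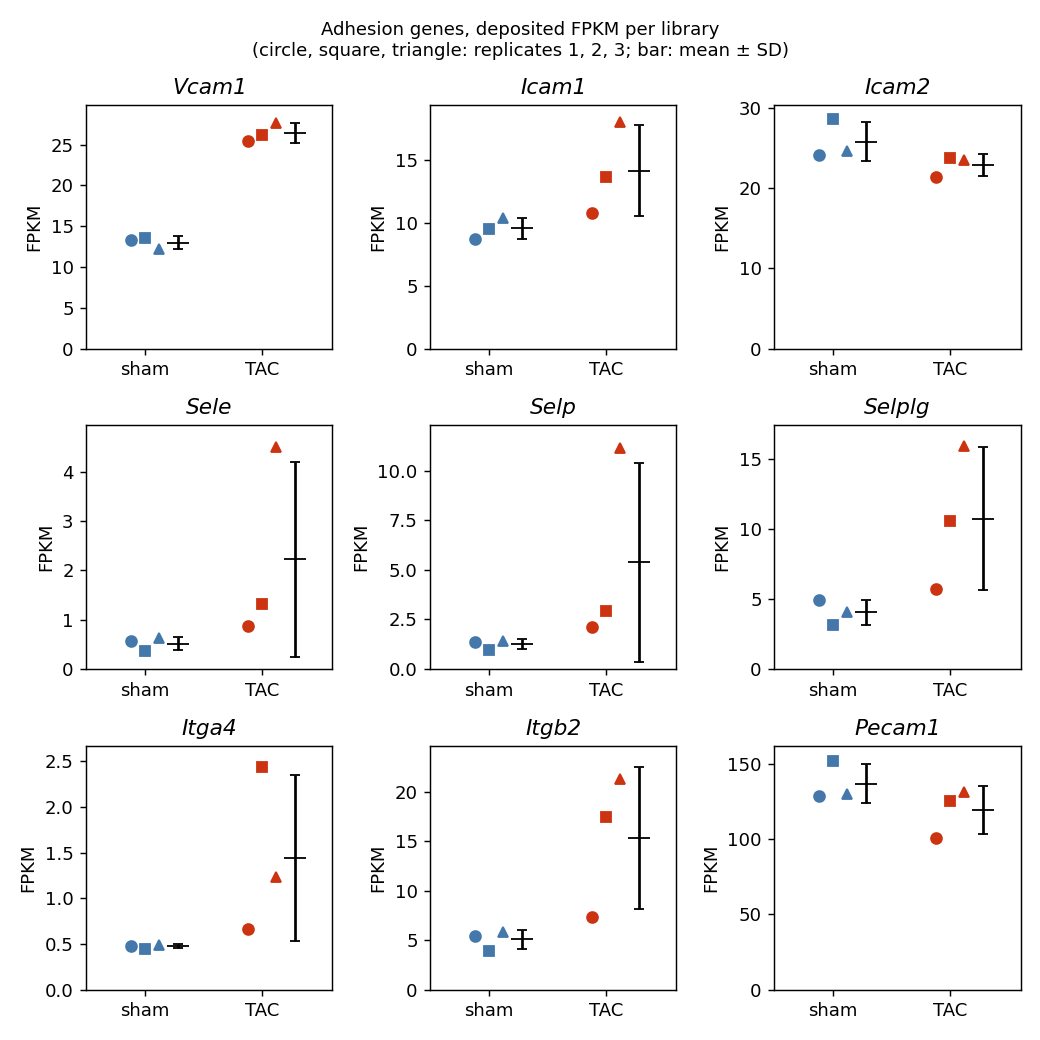
Deposited FPKM (vertical axes, each from 0) of the 9 adhesion genes in 3 sham (blue) and 3 TAC (red) libraries; symbols mark the replicate and black bars the mean ± SD. Vcam1 forms 2 tight groups, Pecam1 overlaps between groups, Icam2 lies slightly lower in TAC, and the other genes spread widely within TAC.

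**Figure D2:**
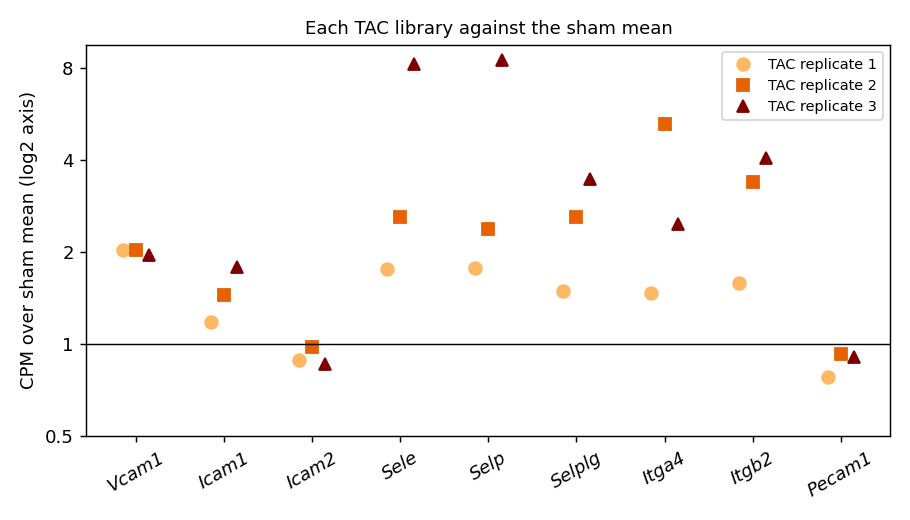
CPM of each TAC library divided by the sham mean (vertical log2 axis) for the 9 genes (horizontal axis). The 3 TAC libraries coincide near 2 for Vcam1, while TAC replicate 3 is highest for Sele and Selp and TAC replicate 2 for Itga4.

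Vcam1, which encodes a ligand of the alpha 4 integrins, had the tightest TAC values of the members. Vcam1 (ENSMUSG00000027962, chromosome 3, 116109949 to 116129688 on the minus strand of GRCm38, overlapped by the antisense gene Gm43109) had 821, 1219 and 838 counts in sham replicates 1, 2 and 3 and 2087, 1955 and 1928 in TAC replicates 1, 2 and 3. In deposited FPKM these were 13.26, 13.57 and 12.15 in sham and 25.38, 26.17 and 27.69 in TAC. Each TAC library thus stood alike above the sham range, TAC replicate 1 included. The coefficient of variation of its CPM was 7.35% in sham and 2.01% in TAC. Its log2 fold change was 1.00 (SE 0.11, adjusted p = 0.00837 by edgeR). The call was lost without sham replicate 1, 2 or 3 (adjusted p = 0.0736, 0.0778 and 0.0947 by edgeR), at log2 fold changes of 0.99, 1.03 and 0.95. Those fits called 16, 16 and 12 of all tested genes. It was kept without TAC replicate 1, 2 or 3 (adjusted p = 0.00402, 0.0362 and 0.00981 by edgeR), where 3229, 36 and 134 genes were called.

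The RNA of the receptor chain that binds VCAM-1 was much less even. Itga4 (ENSMUSG00000027009, chromosome 2, 79255426 to 79333123 on the plus strand, overlapped on the other strand by Cerkl) had 93, 121 and 100 counts in sham and 167, 556 and 267 in TAC, in replicate order. Its FPKM was 0.48, 0.45 and 0.49 in sham and 0.66, 2.44 and 1.23 in TAC. The sham values lay within a narrow band, and TAC replicate 2 was far above the other TAC libraries. Its log2 fold change was 1.61 (SE 0.41, adjusted p = 0.0745 by edgeR) and did not pass; without TAC replicate 2 it was 0.95. TAC replicate 2 also had the highest B cell marker sum, at 23.2 FPKM against 7.01 and 6.54 in TAC replicates 1 and 3 and 3.31 to 5.78 in sham, and the highest Ptprc, at 7.38 FPKM against 2.37 and 5.53. TAC replicate 2 was also highest in the neutrophil sum (206 FPKM against 32.8 and 192) and the T and NK cell sum (7.98 FPKM against 5.02 and 7.71). Markers within both sums were split in FPKM. Of the neutrophil markers, Ngp, Retnlg and Camp were among those highest in TAC replicate 2, and Csf3r, Cxcr2 and Mmp8 among those highest in TAC replicate 3. Cd3e, Cd3g, Cd4 and Ncr1 were highest in TAC replicate 2, but Cd3d, Cd8a and Trac in TAC replicate 3, and Cd2 and Klrb1c in neither. By contrast, TAC replicate 3 was highest in the sums of all leukocytes (275 FPKM) and of monocytes and macrophages (260 FPKM). None of these associations with Itga4 was tested. Itgb1, the beta 1 partner, was at 105 to 125 FPKM in sham and 115, 122 and 185 FPKM in TAC replicates 1, 2 and 3 (log2 change 0.25, SE 0.18, adjusted p = 0.405 by edgeR). Itgb7, the beta 7 partner, rose by 1.72 (SE 0.33, adjusted p = 0.0499 by edgeR), from 0.43, 0.45 and 1.71 FPKM in sham to 1.39, 2.17 and 2.30 FPKM in TAC. Its FPKM values overlapped, since sham replicate 3 exceeded TAC replicate 1, whereas its counts did not (23, 33 and 51 in sham, 96, 136 and 137 in TAC). The FPKM that a count of Itgb7 stood for, after allowing for library size, differed 1.92-fold between libraries and was highest in sham replicate 3.

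Icam1, the inducible ligand of the beta 2 integrins, had higher values in TAC by a smaller step than Vcam1. Icam1 (ENSMUSG00000037405, chromosome 9, 21015985 to 21028817 on the plus strand, overlapped by the antisense gene Gm47079) had 439, 667 and 559 counts in sham and 707, 810 and 1015 in TAC. Its FPKM was 8.77, 9.55 and 10.45 in sham and 10.81, 13.68 and 18.06 in TAC. The groups did not overlap, but TAC replicate 1 lay just above the highest sham library. Its log2 fold change was 0.56 (SE 0.16, adjusted p = 0.0911 by edgeR) and did not pass.

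Itgb2, the beta 2 integrin chain of nearly all leukocytes, came closest to the threshold of the members that did not pass. Itgb2 (ENSMUSG00000000290, chromosome 10, 77530252 to 77565708 on the plus strand) had 297, 324 and 333 counts in sham and 551, 1102 and 1348 in TAC. Its FPKM was 5.43, 3.96 and 5.85 in sham and 7.37, 17.44 and 21.31 in TAC. TAC replicates 2 and 3 were well above TAC replicate 1, which was still above all sham libraries. Its log2 fold change was 1.59 (SE 0.32, adjusted p = 0.0523 by edgeR). With only genes of higher counts tested (a minimum count of 100, at which 1.31% of genes were higher) it passed (adjusted p = 0.0495 by edgeR). The alpha chains of the beta 2 integrins had positive log2 fold changes that did not pass: 1.93 for Itgam (CD11b, of neutrophils and monocytes; SE 0.45, adjusted p = 0.0631 by edgeR), 1.19 for Itgal (CD11a, of most leukocytes; SE 0.33, adjusted p = 0.0846 by edgeR) and 1.15 for Itgax (CD11c; SE 0.42, adjusted p = 0.143 by edgeR). Itgam was at 0.602 to 0.670 of the Itgb2 FPKM in 5 libraries and at 1.03 in TAC replicate 3. Itgal stood at 0.208 to 0.268 of Itgb2 in sham and at 0.176, 0.212 and 0.134 in TAC replicates 1, 2 and 3.

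The endothelial selectins had the largest fold changes of the members and the widest spread. Sele (ENSMUSG00000026582, chromosome 1, 164048234 to 164057677) and Selp (ENSMUSG00000026580, chromosome 1, 164115264 to 164150026, overlapped on the other strand by Gm16587 and Gm16548) lie on the plus strand within 101.8 kb. Sele had 33, 29 and 38 counts in sham and 65, 90 and 290 in TAC, or 0.57, 0.36 and 0.62 FPKM and 0.87, 1.32 and 4.49 FPKM. Selp had 93, 92 and 102 counts in sham and 186, 234 and 851 in TAC, or 1.37, 0.97 and 1.41 FPKM and 2.10, 2.91 and 11.16 FPKM. For both, TAC replicate 3 was by far the highest library and sham replicate 2 the lowest in FPKM, and the groups did not overlap. The log2 fold changes were 2.07 for Sele (SE 0.57, adjusted p = 0.0833 by edgeR) and 2.07 for Selp (SE 0.56, adjusted p = 0.0811 by edgeR), and neither passed. Without TAC replicate 3 they were 1.11 and 1.04.

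Both endothelial selectins kept step with each other in every library. The FPKM of Sele was 0.416, 0.371 and 0.440 of that of Selp in sham replicates 1, 2 and 3 and 0.414, 0.454 and 0.402 in TAC replicates 1, 2 and 3. The ratio thus varied 1.22-fold while Sele itself varied 12.5-fold. In counts the ratio also varied 1.22-fold. TAC replicate 3 also had the highest platelet marker sum (83.6 FPKM against 41.1 and 41.8 in TAC replicates 1 and 2). Most of this sum was Pf4, at 36.4, 38.4 and 74.4 FPKM in TAC replicates 1, 2 and 3. Ppbp was also highest in TAC replicate 3 (2.93, 1.5 and 6.54 FPKM), while Itga2b differed less (0.73, 0.71 and 0.96 FPKM). Only 3 of the 8 platelet markers were high enough to test. The part of platelets in the Selp value was not tested.

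**Figure D3:**
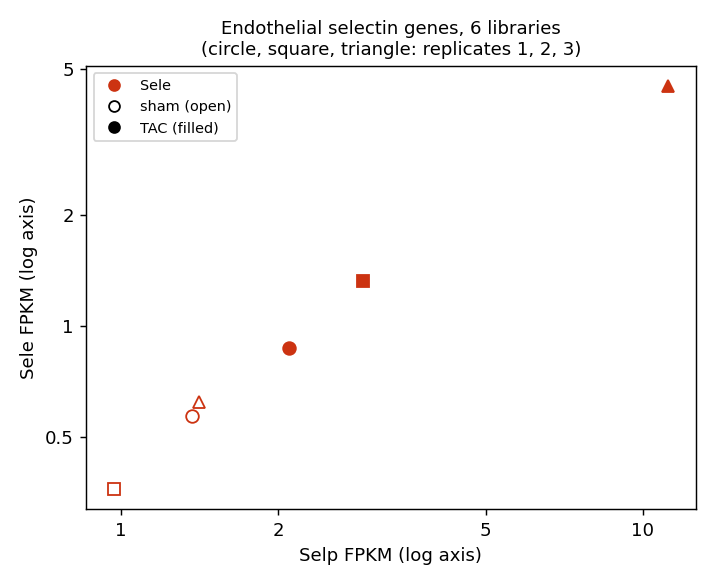
FPKM of Sele against that of Selp in the 6 libraries, on log axes; open symbols are sham, filled symbols TAC. The Sele points lie near a line of constant ratio (0.371 to 0.454), with TAC replicate 3 far out on it.

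Selplg, which encodes the selectin ligand PSGL-1 on leukocytes, stood between the selectins and Icam1 in fold change. Selplg (ENSMUSG00000048163, chromosome 5, 113818536 to 113832644 on the minus strand) had 171, 161 and 159 counts in sham and 269, 439 and 596 in TAC, or 4.96, 3.15 and 4.06 FPKM and 5.71, 10.54 and 15.93 FPKM. The groups did not overlap, with TAC replicate 1 close to sham replicate 1. Its log2 fold change was 1.33 (SE 0.30, adjusted p = 0.0627 by edgeR) and did not pass. The ratio of Selplg to Itgb2, both leukocyte genes, ranged from 0.604 to 0.913 over the 6 libraries.

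Pecam1 and Icam2, the constitutive endothelial members, had slightly lower mean values in TAC, by amounts that did not pass. Pecam1 (ENSMUSG00000020717, chromosome 11, 106654217 to 106750628 on the minus strand) had 8347, 13785 and 9071 counts in sham and 8621, 9615 and 9607 in TAC, or 128.69, 151.87 and 130.44 FPKM and 101.11, 125.69 and 131.66 FPKM. In FPKM, TAC replicate 1 was its lowest library and sham replicate 2 its highest. Its CPM did not overlap between groups (419 to 507 in sham, 351 to 417 in TAC), as for 13.1% of all tested genes with TAC below sham, but its FPKM did. Its log2 fold change was -0.20 (SE 0.14, adjusted p = 0.400 by edgeR). Icam2 (ENSMUSG00000001029, chromosome 11, 106377656 to 106388075 on the minus strand) had 592, 932 and 646 counts in sham and 687, 708 and 635 in TAC, or 24.21, 28.65 and 24.70 FPKM and 21.40, 23.84 and 23.53 FPKM. Its FPKM was lower in every TAC library than in every sham library, whereas its CPM overlapped between groups, at 29.8 to 34.3 in sham and 27.0 to 30.7 in TAC. The log2 fold change of Icam2 was -0.14 (SE 0.12, adjusted p = 0.481 by edgeR).

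**Figure D4:**
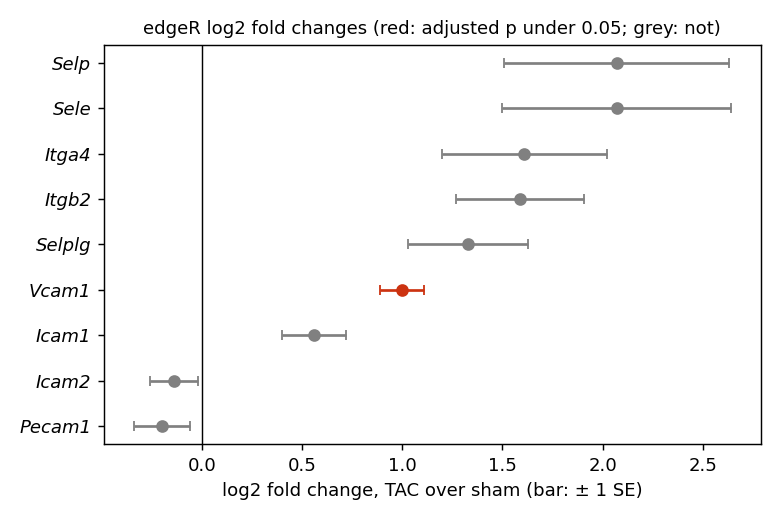
edgeR log2 fold change of TAC over sham (horizontal axis) for the 9 genes, with bars of ± 1 SE; red marks an adjusted p under 0.05. Vcam1 has the shortest bar (SE 0.11) and Sele and Selp the longest (SE 0.57 and 0.56).

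Levels per gene length placed Pecam1 first in both groups, at a mean of 137 FPKM in sham and 119 FPKM in TAC. In sham, Icam2 (25.9 FPKM), Vcam1 (13.0), Icam1 (9.59), Itgb2 (5.08), Selplg (4.06), Selp (1.25), Sele (0.517) and Itga4 (0.473) followed in mean FPKM. Among neighbours in that order, Itgb2 and Selplg overlapped in their library values, as did Sele and Itga4, and no other neighbours did. In TAC, Vcam1 (26.4 FPKM) stood above Icam2 (22.9 FPKM), with no overlap between the library values of these genes. Itgb2 (15.4 FPKM), Icam1 (14.2 FPKM), Selplg (10.7 FPKM), Selp (5.39 FPKM), Sele (2.23 FPKM) and Itga4 (1.44 FPKM) followed, and each overlapped its neighbour.

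Ratios within a library compared the inducible members with Pecam1 and the leukocyte members with Ptprc, the gene of the leukocyte antigen CD45. Relative to Pecam1, Vcam1 stood at 0.103, 0.0894 and 0.0931 in sham replicates 1, 2 and 3 and at 0.251, 0.208 and 0.210 in TAC replicates 1, 2 and 3, all as FPKM ratios. Every TAC value was above every sham value for Vcam1, Icam1, Sele and Selp, by mean factors of 2.34, 1.67, 3.95 and 3.81. Each gave p = 0.1 in the exact two-sided permutation test, the smallest that 3 against 3 libraries allow (adjusted p = 0.133 over 8 ratios), so these ratios could not pass a threshold of 0.05. The ratio of Icam2 to Pecam1 was 0.188 to 0.189 in sham and 0.179 to 0.212 in TAC, overlapping (mean factor 1.02). Over Cdh5 the mean factor of Icam2 was 1.21, and over the summed endothelial markers 0.949, again with overlap. With Cdh5, a junction gene, or the summed endothelial markers as denominator, Vcam1, Icam1, Sele and Selp did not overlap. The factors were 2.78 and 2.17 for Vcam1 and 1.98 and 1.55 for Icam1. Pecam1 and Cdh5 had lower mean values in TAC (log2 fold changes -0.20 and -0.44), which raises the TAC ratio of any gene set over them. The share of all tested genes that would separate over these bases, or over Ptprc, was not computed.

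Relative to Ptprc, the leukocyte members were lower in TAC on average. Mean factors were 0.619 for Selplg and 0.665 for Itga4, both without overlap between groups (exact two-sided permutation p = 0.1 each, adjusted p = 0.133), and 0.699 for Itgb2, with overlap (exact permutation p = 0.3, adjusted p = 0.343). The FPKM that a count of Ptprc stood for, after allowing for library size, was 0.211 to 0.212 in sham and 0.22 to 0.236 in TAC. With rounded counts plus 0.5, 1 of the 3 ratios was lower in every TAC library than in every sham library. The log2 differences were then -0.62 for Selplg, -0.47 for Itga4 and -0.4 for Itgb2. Ptprc itself had the largest change of the 8 markers of all leukocytes, a rise of 1.99 on the log2 scale (SE 0.35, adjusted p = 0.0410 by edgeR). Relative to the sum of the 8 leukocyte markers the direction turned, with factors of 1.23, 1.33 and 1.39 for Selplg, Itga4 and Itgb2, all overlapping between groups (exact permutation p = 0.2, 0.8 and 0.2). For Itga4 only TAC replicate 2 (0.0128) stood above the sham ratios (0.00466 to 0.00531), with TAC replicates 1 and 3 at 0.00505 and 0.00448. The largest parts of the sum in sham were Arhgdib (mean 37.5 FPKM) and Laptm5 (17.9 FPKM). These had the smallest log2 changes of the 8 markers (0.61 and 0.89). The direction for these 3 leukocyte members thus depended on the base, Ptprc or the marker sum. The part of the sum's weighting in this was not tested.

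**Figure D5:**
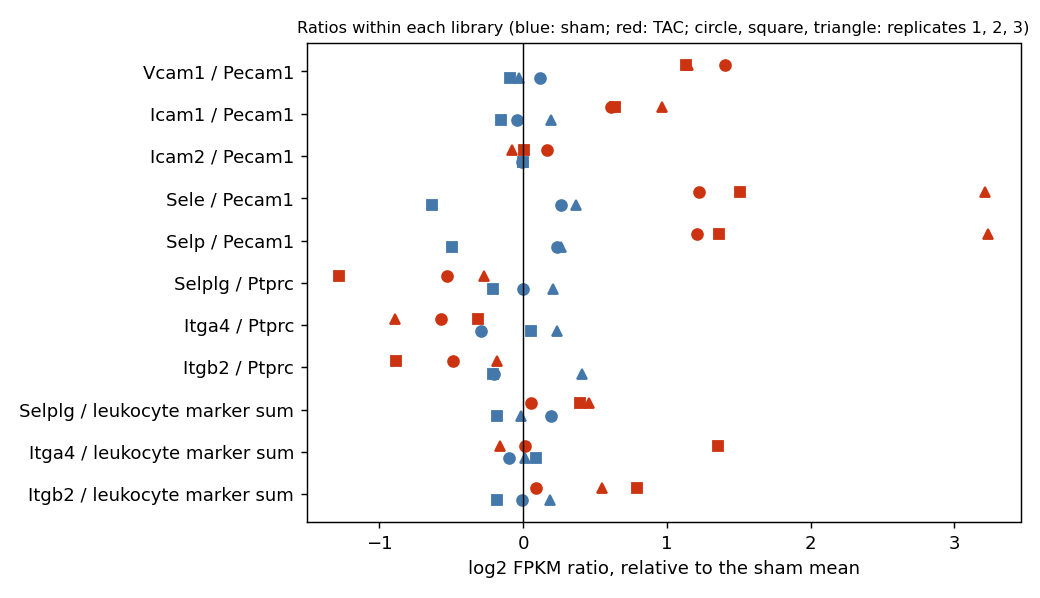
log2 FPKM ratio within each library, centred on the sham mean (horizontal axis), for members over Pecam1, Ptprc or the leukocyte marker sum (rows); blue is sham and red TAC. Vcam1, Icam1, Sele and Selp lie right of all sham values, Icam2 stays near 0, and the leukocyte genes lie left over Ptprc and mostly right over the marker sum.

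The other genes of the adhesion cascade were read from 7 further lists. Of their 81 tested genes 2 passed as higher and 0 as lower, or 2.47%, beside 1.66% of all tested genes in either direction. Of 10 tested genes of integrin partners and other leukocyte integrins, Itgb7 passed as higher, 0 passed as lower and 9 did not pass (median log2 fold change 0.81). This list also holds Itgb1, Itga5, Itga6, Itgav and Itgb3, so the median is not one of leukocyte integrins alone. Of 8 genes of integrin activation, 1 passed as higher, Skap2, an adaptor of integrin signalling in leukocytes. Skap2 was at 4.33, 5.21 and 5.79 FPKM in sham and 6.93, 8.92 and 10.86 FPKM in TAC (log2 change 0.73, SE 0.14, adjusted p = 0.0451 by edgeR). The groups did not overlap. Fermt3, which encodes kindlin-3, needed for integrin activation in blood cells, had a log2 change of 1.02 (SE 0.22, adjusted p = 0.0585 by edgeR). The median of the integrin activation list was 0.49.

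Of 15 tested selectin ligands and glycosyltransferases none passed, 7 were positive and the median was -0.16. Its most abundant members, both sialomucins of endothelium, were Cd34 (log2 change -0.25, SE 0.13, adjusted p = 0.266 by edgeR) and Podxl (0.13, SE 0.15, adjusted p = 0.628 by edgeR). Glycam1, a mucin known from specialised lymph node venules, was too low to test, with 0.19, 0.06 and 0.08 FPKM in sham and 0.37, 0 and 4.45 FPKM in TAC replicates 1, 2 and 3. Its single high value was in TAC replicate 3, the library highest for Sele and Selp, and the gene was singled out after its values were seen. Of 14 endothelial junction genes none passed and 4 were positive (median -0.18). Cdh5, which encodes VE-cadherin, was at 93.5 to 100 FPKM in sham and 63.5 to 80.0 FPKM in TAC without overlap (log2 change -0.44, SE 0.13, adjusted p = 0.0880 by edgeR), and Esam had -0.23 (SE 0.13, adjusted p = 0.303 by edgeR).

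None of 9 other adhesion ligands passed (median 0.21), among them the abundant Mfge8 (0.08, SE 0.12, adjusted p = 0.721 by edgeR) and the fibronectin gene Fn1, a further ligand of alpha 4 integrins (0.44, SE 0.37, adjusted p = 0.477 by edgeR). Madcam1, the mucosal ligand of the alpha 4 beta 7 integrin, had 0 FPKM in 5 libraries and 0.08 in sham replicate 2 and was not tested. Of 10 docking, shedding and cytoskeletal genes none passed (median 0.32). Msn, which encodes moesin, a membrane-cytoskeleton linker, stood at 73.3 to 82.0 FPKM in sham and at 73.0, 98.4 and 243 FPKM in TAC replicates 1, 2 and 3 (log2 change 0.82, SE 0.37, adjusted p = 0.204 by edgeR). The protease gene Adam15 had 0.16 (SE 0.14, adjusted p = 0.480 by edgeR).

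Of 15 tested inducers and regulators of endothelial activation none passed, 12 were positive and the median was 0.49. Klf2, a flow-induced factor that restrains Vcam1 and Sele, was at 21.8, 29.0 and 34.5 FPKM in sham and 41.0, 50.5 and 51.3 FPKM in TAC, without overlap (log2 change 0.75, SE 0.16, adjusted p = 0.0619 by edgeR). Tnfrsf1a, a receptor of tumour necrosis factor, had 0.30 (SE 0.19, adjusted p = 0.337 by edgeR). Il1b, a cytokine that induces these adhesion genes, had the largest change of the list and did not pass (log2 change 3.11, SE 0.87, adjusted p = 0.0844 by edgeR). It was at 0.93, 0.46 and 0.56 FPKM in sham and 0.74, 3.85 and 12.67 FPKM in TAC replicates 1, 2 and 3, so that TAC replicate 1 lay within the sham range. Tnf and Il1a, which also induce them, were too low to be tested.

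The genes whose log2 CPM followed Vcam1 most closely over the 6 libraries, of 12448 searched, were Ifi207, Atp2c1 and Sypl2 (Pearson r 0.997, 0.996 and 0.993). For Itgb2 they were Tnfrsf1b, Napsa and Trib1 (0.999, 0.997 and 0.996), and for Pecam1 Nos3, Cdh11 and Wnt2 (0.988, 0.974 and 0.964). The 6 points share the split into groups and the library scaling, so these values only describe likeness. Nos3, the endothelial nitric oxide synthase gene, had a log2 change of -0.20 (SE 0.12, adjusted p = 0.319 by edgeR), the same size as that of Pecam1. Tnfrsf1b, a tumour necrosis factor receptor, had 0.93 (SE 0.22, adjusted p = 0.0640 by edgeR), and Ifi207, an interferon-inducible gene of a multigene family, rose by 1.51 (SE 0.15, adjusted p = 0.00556 by edgeR).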

How the data were processed

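RNA of 6 heart libraries was analysed from 1 table deposited by the authors, which holds for each gene an estimated count and an FPKM value per library, per the file headers. The build was GRCm38 and the tools named were DESeq2, StringTie 1.3.1, HISAT2 and Bowtie2 2.2.8, per the submitters' processing notes, which do not say here which tool made which column. The protocol does not state that strand was kept, so antisense genes may share reads. Symbols and coordinates came from GENCODE M21 (GRCm38), which matched 22255 of 22298 identifiers.

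Estimated counts (whole for all 9 members) were rounded and compared between groups by edgeR 4.0.16 under R 4.3.3 (filterByExpr, minimum count 10, TMM, glmQLFit, glmQLFTest, no covariate) across 13708 genes, tested on simulated data first. One gene of the lists is counted with its list and not reported here. The deposited FPKM per count, at equal library size, varied up to 1.1-fold between libraries for the members and 1.12-fold for Ptprc. CPM use TMM-scaled library sizes, and the SE is the log2 fold change over the square root of F. FPKM ratios were compared by an exact permutation test (scipy 1.17.1). Alternatives included DESeq2 1.42.0, limma 3.58.1 (voom, and trend on log2 of FPKM plus 1 or 0.1), other scalings and filters, and each library left out.

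The members, lists and rules were chosen with earlier results of these data known. Named are all members, up to 3 called genes or else the 2 most abundant of each further list, and the 3 genes most correlated with Vcam1, Pecam1 and Itgb2. Genes beyond these were picked after their values were seen. The labels state no pairing between the groups, so libraries were not paired. Same-numbered replicates of the groups did not deviate together (correlations 0.011, -0.111 and -0.024), a weak check with 3 libraries per group.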

Additional observations from a re-analysis of the deposited data

How the results depend on the processing

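Vcam1 passed under all 11 other settings that kept every library, and without TAC replicate 1, 2 or 3, but not without any given sham library. No member changed the sign of its log2 fold change in any fit. The number of members higher in TAC was 1 in the main test, 7 with DESeq2's Wald test or at an adjusted p under 0.10, and 2 with a minimum count of 100. It ranged from 0 to 7 with 1 library left out, with 7 only without TAC replicate 1, where 13.2% of all tested genes were higher. No member passed as lower under any setting. All tested genes called numbered 227 (153 higher, 74 lower). With DESeq2's Wald test they numbered 1669 (1071 and 598), of which 64.2% were higher against 67.4% in the main test. At an adjusted p under 0.10 they numbered 1610 (1131 and 479). Limma-voom called 96 higher. Limma-trend on log2 FPKM called 125 genes with a pseudocount of 1 (59 higher, 47.2% of the calls) and 120 with 0.1 (64 higher). With the replicate number as a block, 74 genes were called (48 higher, 26 lower), Vcam1 among them. With 1 library left out, calls ranged from 12 to 3229, higher genes from 4 to 1837 and lower genes from 8 to 1392. Sele and Itga4 were below the FPKM filter and Sele below the minimum count of 100. Of the 3 leukocyte genes, 2 were below sham in every TAC library relative to Ptprc, 1 with rounded counts and 0 with the leukocyte marker sum, over which the log2 ratio difference was 0.30 for Selplg and 0.41 for Itga4, against -0.69 and -0.59 over Ptprc. The cause of these differences was not tested. The Sele counts of 29 to 38 in sham limit its precision.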
